A study of Rattus norvegicus with 4 samples.

Results

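MicroRNAs (miRNAs) in RNA from serum exosomes of uninjected rats were described from the 1 array labelled Naïve (day 0). The members are the rat miRNAs that the scanner software called detected on it, 140 of the 719 on the array (19.5%). Across all 4 arrays of the series, 182 miRNAs were detected on at least 1. The series set uninjected rats against rats that, per the labels' treatment protocol, received an HCC (hepatocellular carcinoma) cell line and were sampled at day 35 or day 49. Its design text speaks instead of HCC exosomes given as 1 dose to baffolo rats.

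The naive group is serum of male rats without injection, and the age of the animals is not given in the sources used here. Per the design text, different rats were used in 4 experiments at each time. This group has 1 array here, and pooling of RNA is neither stated nor excluded in the labels. The values therefore describe 1 array, with no spread between animals and no test. The ± after a signal is the scanner software's own error for that array.

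miRNAs are short RNAs cut from hairpin precursors. One strand, or arm, of the hairpin is loaded into an Argonaute protein and guides it to messenger RNAs, mainly by pairing through the seed, bases 2 to 8 from the 5′ end. The 5p arm lies before the hairpin loop and the 3p arm after it. Exosomes are small vesicles that cells release, and those in serum come from many tissues, blood cells among them. A miRNA array carries no protein marker of vesicles, so the label could be checked against miRNAs of cell types only.

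The 10 brightest members are shown because they carry most of the signal. RefSeq mature sequences (build GRCr8) matched 128 of the 140 members, which held 98.1% of the summed signal, and capitals mark the seed.
miR-451-5p: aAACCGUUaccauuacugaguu
miR-3584-5p: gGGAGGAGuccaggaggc
miR-1224: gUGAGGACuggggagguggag
miR-3473: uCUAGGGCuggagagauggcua
miR-16-5p: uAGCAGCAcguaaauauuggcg
miR-223-3p: uGUCAGUUugucaaauacccc
miR-92a-3p: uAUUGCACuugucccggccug
miR-23a-3p: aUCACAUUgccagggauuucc
miR-19b-3p: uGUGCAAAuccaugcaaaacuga
miR-24-3p: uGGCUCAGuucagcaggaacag

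A few miRNAs took most of the signal. The value per miRNA is the scanner software's total gene signal, in intensity units, and a share is that value over its sum over the 140 members. miR-451-5p, the main miRNA of red cells, gave 18841 ± 1432, or 20.05% of the sum. miR-3584-5p gave 17087 ± 1209, or 18.2%. The gap between them (1755) was smaller than their combined error (1874), so their order is not settled. Together they held 38.2% of the signal.

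miR-1224, which is cut from a short spliced intron, came next with 6449 ± 626 (6.86%), and miR-3473 followed with 5675 ± 515 (6.04%). The gap between these was also smaller than their combined error. miR-16-5p, a repressor of cell-cycle genes abundant in blood cells, gave 4792 ± 359 (5.10%). miR-223-3p, a miRNA of granulocytes and platelets, gave 4432 ± 320 (4.72%), which did not differ from miR-16-5p beyond the error. The 4 brightest members held 51.1% of the signal, the 5 brightest 56.2% and the 10 brightest 71.4%.

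**Figure D1:**
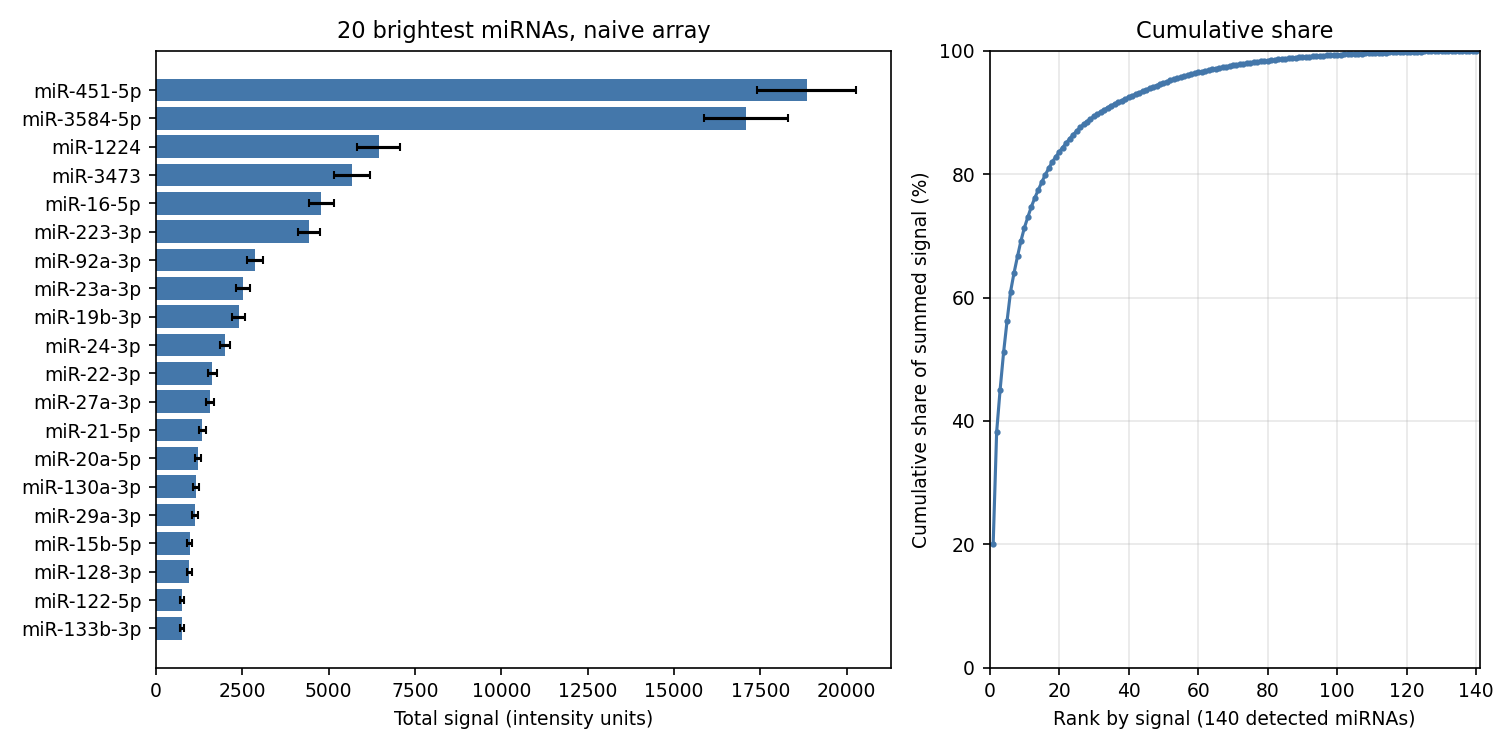
Left, total signal of the 20 brightest miRNAs on the naive array in intensity units, with bars for the scanner software's error; right, cumulative share of the summed signal in percent by rank for the 140 detected miRNAs. miR-451-5p and miR-3584-5p stand above all others, and 32 members reach 90% of the signal.

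The next members were miRNAs known from many cell types. miR-92a-3p, of the miR-17-92 cluster, gave 2873 ± 231. miR-23a-3p (2511 ± 198), miR-24-3p (2004 ± 143) and miR-27a-3p (1562 ± 118) can come from 1 primary transcript. miR-19b-3p, of the same cluster as miR-92a-3p, gave 2391 ± 184. Among these 5, miR-23a-3p and miR-19b-3p did not differ beyond their error. The steps from miR-92a-3p to miR-23a-3p and from miR-19b-3p to miR-24-3p were larger than the error. miR-27a-3p did not differ beyond the error from miR-22-3p, the member above it in rank.

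miR-22-3p gave 1633 ± 126 and miR-21-5p, a broadly expressed miRNA often raised in tumours, 1336 ± 102. miR-20a-5p (1216 ± 88.9), miR-130a-3p (1169 ± 83.3) and miR-29a-3p (1128 ± 87.2), which represses collagen genes, had neighbouring values within their errors. miR-15b-5p gave 979 ± 79.3 and miR-128-3p 961 ± 70.2. miR-122-5p, a hepatocyte miRNA that acts on cholesterol metabolism, gave 762 ± 57.5, and miR-133b-3p, of muscle, 756 ± 63.9. Of the 19 steps between neighbours among the 20 brightest, 9 were larger than the combined error.

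The 20 brightest members held 83.6% of the signal. The median member gave 90.8 intensity units, and the range ran from 4.29 to 18841. 32 members reached 90% of the signal and 91 reached 99%. Each of 71 members held under 0.1%, and these 71 together held 2.47%. The software's error was 7.08% to 9.71% of the signal for the 20 brightest and had a median of 23.2% for the 20 dimmest.

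Each miRNA was read by several probes, and these gave a measure of how far a signal depends on the probe. Of the 140 members 128 had 2 probes, 11 had 4 and 1 had 1. In 88 members with 2 probes, both had at least 0.5 of their spots well above background. The brighter probe of these 88 read a median of 2.23 times the dimmer (range 1.01 to 32.3, 90th percentile 4.53). Spots of 1 probe agreed closely, with a median coefficient of variation of 4.97% over 227 probes. Signals of different miRNAs are thus read through different probes, and a share of signal is not a share of molecules.

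The probes of the brightest members differed from each other in this respect. miR-3584-5p was read alike by both, at 12822 ± 477 and 12367 ± 376 (SD over 10 spots each). miR-451-5p read 19368 ± 326 and 8407 ± 157 (10 spots each). miR-1224 rested almost wholly on 1 probe, with 9222 ± 162 against 285 ± 7.28 (10 spots each), the widest gap among the 88. miR-3473 read 7553 ± 136 over 10 spots and 814 ± 10.1 over 8. With the brightest probe alone in place of the total, miR-3584-5p held 13.4% and miR-1224 9.64%, while miR-451-5p stayed at 20.3%.

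**Figure D2:**
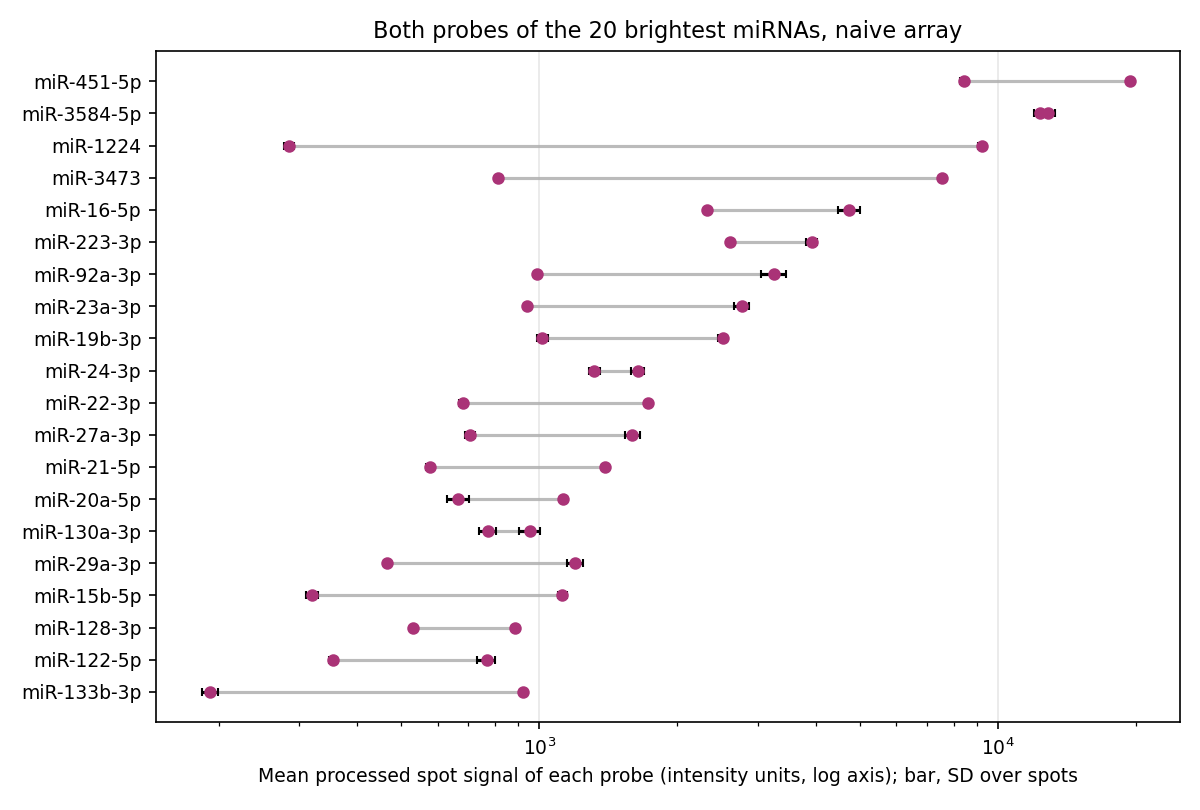
Mean processed spot signal of each of the 2 probes of the 20 brightest miRNAs, in intensity units on a log axis, with bars for the SD over spots; a grey line joins the probes of 1 miRNA. The probes of miR-1224 lie farthest apart (9222 and 285), and those of miR-3584-5p lie close together (12822 and 12367).

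Most miRNAs on the blood-cell lists were detected, against 19.5% of all miRNAs on the array. The lists were chosen with earlier results of these data known, so counts of detected members are no result about blood cells. The 5 lists for blood cells had 20 detected members, which held 40.9% of the signal. The red-cell list had 2 of 3 members on the array detected. They were miR-451-5p and miR-144-3p, which gave 115 ± 10.2, and miR-144-5p was not detected. miR-451-5p supplied nearly all of that list's 20.2% ± 1.52, since miR-144-3p held 0.122%. The list of miRNAs shared by red cells and other blood cells had 5 of 5 detected, with 10.1% ± 0.465. Beside miR-16-5p, miR-92a-3p and miR-15b-5p it holds miR-25-3p (670 ± 52.5) and miR-185-5p (148 ± 11.4).

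The platelet list had 6 of 6 detected, with 9.31% ± 0.399 and a median signal of 1127, against 90.8 over all members. miR-223-3p, miR-24-3p and miR-22-3p led it, and miR-26a-5p gave 622 ± 46.5. miR-126a-3p, a miRNA of platelets and endothelium, was dim at 48.8 ± 5.03. miR-191a-5p gave 10.7 ± 1.67, near the lowest member, with 5 of its 20 spots well above background.

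Leukocyte miRNAs were also present. The myeloid and pan-leukocyte list had 4 of 4 detected (5.41% ± 0.342), of which miR-223-3p, shared with the platelet list, held most. miR-142-3p, found in all blood-forming cells, gave 350 ± 26.5, miR-146a-5p, a brake on innate immune signalling, 152 ± 11.9 and miR-142-5p 150 ± 11.0. The lymphocyte list had 4 of 4 detected and held 0.676% ± 0.0381. Its brightest members were miR-150-5p, of mature lymphocytes, at 341 ± 30.3 and miR-342-3p at 260 ± 18.8. miR-181a-5p and miR-181b-5p gave 21.3 ± 2.99 and 13.5 ± 2.49.

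miRNAs on the lists for solid tissues took a small part of the signal. The 7 lists for liver, muscle and heart, smooth muscle and fibroblasts, brain, pancreas, epithelium and testis had 15 detected members with 3.30% of the signal in all. Over the whole array 19.5% of miRNAs were detected. These lists too were chosen with earlier results of these data known, so their counts are no result about solid tissues. The hepatocyte list had 4 of 5 detected and held 1.07% ± 0.0639. miR-122-5p led it, followed by miR-192-5p, of liver and gut, at 218 ± 16.9. miR-122-3p and miR-193-3p gave 13.8 ± 2.51 and 14.3 ± 2.54, and miR-194-5p was not detected.

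The list for skeletal muscle and heart had 3 of 7 detected (0.909% ± 0.0685). miR-133b-3p was followed by miR-1-3p at 88.5 ± 7.18 and miR-133a-3p at 10.2 ± 2.33. miR-206-3p, of skeletal muscle, and miR-208a-3p, miR-208b-3p and miR-499-5p, which lie in introns of myosin genes, were not detected. The list for smooth muscle and fibroblasts had 7 of 13 detected but held 0.299% ± 0.0137. miR-143-3p gave 102 ± 9.23 and the other 6 gave 22.9 to 37.7. Both endothelial entries, the arms of miR-126a, were detected and held 0.0713% ± 0.00723.

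In the neuron and glia list 1 of 9 was detected, miR-128-3p, with 1.02% ± 0.0747, whereas miR-124-3p and miR-9a-5p, which define neurons and neural progenitors, were not. None of the 10 epithelial miRNAs (the miR-200 and miR-183 families, miR-203a-3p and miR-205) was detected. The same held for the 3 of pancreas (miR-375-3p, miR-216a-5p and miR-217-5p) and the 3 of testis (miR-34b-5p, miR-34c-5p and miR-449a-5p). Summed over their probes, the background-subtracted signals of these 16 lay between −36.3 and 10.9, and 0 spots of any of them were well above background. Over the whole array 19.5% of miRNAs were detected, so low counts in lists as short as those of pancreas, testis and brain lie near that background and are no result about these tissues. From which cells the exosomes came was not tested.

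**Figure D3:**
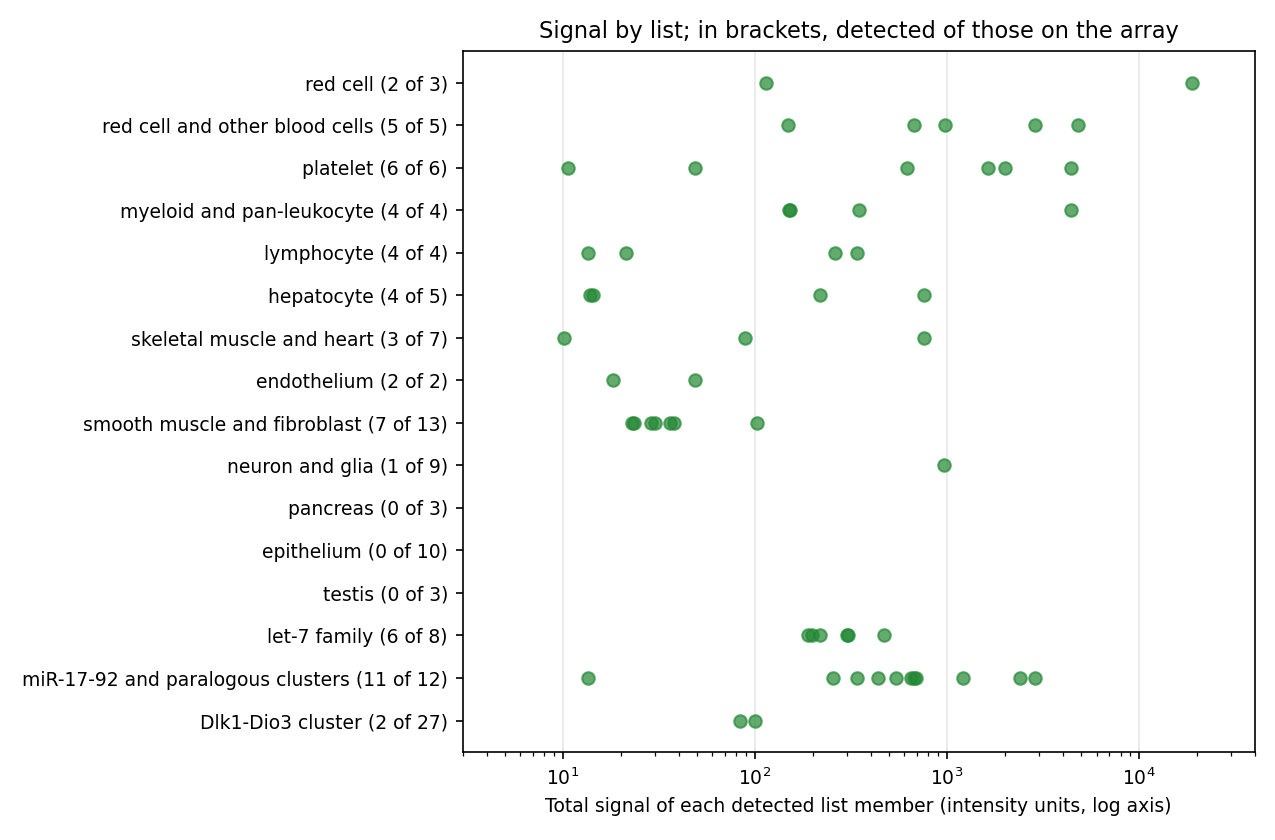
Total signal of each detected list member in intensity units on a log axis, by list; the brackets give how many of the miRNAs on the array were detected. The brightest members of the 5 blood-cell lists lie between 341 and 18841, and the pancreas, epithelium and testis lists have no detected member.

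Over all 16 lists, 53 of the 117 miRNAs on the array were detected (45.3%, against 19.5% over the whole array). Because the lists were chosen with earlier results of these data known, this difference is no result about their miRNAs. The other 87 members, on no list, held 46.8% of the signal, and miR-3584-5p, miR-1224 and miR-3473 made up most of that. Of the 20 brightest members 7 are on a blood-cell list, and 8 are on no list.

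Grouped by seed, the 128 members with a sequence fell into 96 groups, of which 79 had a single member. The 17 groups with 2 or more held 49 members and 29.8% of the signal. The largest was the group of miR-16-5p (seed AGCAGCA), repressors of cyclins, with 6.20% ± 0.391. All 5 of its miRNAs on the array were detected, but miR-16-5p alone made up 82.3% of it, and miR-497-5p, miR-195-5p and miR-322-5p gave 33.9 ± 3.99, 12.6 ± 2.44 and 7.09 ± 2.21. The miR-92a-3p group (AUUGCAC) followed with 3.78% ± 0.252. It holds miR-25-3p and miR-363-3p, and 3 of its 5 on the array were detected. miR-92b-3p, which the series title names and which has this seed, was not detected. Over the whole array 19.5% of miRNAs were detected. The groups described were picked by their summed signal, which only detected miRNAs have, so their counts are no result about the seeds.

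The group with the seed AAAGUGC, which promotes cell-cycle entry, was spread more evenly. All 5 members were detected, against 19.5% over the whole array, and held 3.54% ± 0.133. The brightest, miR-20a-5p, made up 36.6% of the group. miR-20b-5p gave 686 ± 50.5, miR-17-5p 649 ± 56.5, miR-106b-5p 439 ± 32.7 and miR-93-5p 338 ± 30.1. The group of miR-19b-3p and miR-19a-3p (GUGCAAA) held 3.12% ± 0.200 and the group of miR-23a-3p and miR-23b-3p (UCACAUU) 2.89% ± 0.211. The 5 groups together held 19.5%.

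The let-7 family, regulators of differentiation, had 6 of 8 members detected, against 19.5% over the whole array, and held a combined 1.79% ± 0.0586. let-7i-5p gave 472 ± 34.6, let-7a-5p 306 ± 23.2 and let-7f-5p 303 ± 24.3. let-7d-5p (218 ± 16.5), let-7b-5p (197 ± 14.6) and let-7c-5p (188 ± 14.8) were lower, and let-7e-5p and miR-98-5p were not detected. These sequences are near-identical, and their probes can share targets, so single members are uncertain.

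Where a precursor had any arm detected, it was mostly a single one. The array held both arms of 262 precursors by name. Both arms were detected for 9 of these, 1 arm for 93 and no arm for 160. The lone arm was the 5p arm in 46 precursors and the 3p arm in 47, so neither side prevailed by number. By signal the lone 5p arms summed to 50251 and the lone 3p arms to 17333, and miR-451-5p and miR-3584-5p made up most of the former. 44 of the 93 lone arms gave more than 100 intensity units. Among the 20 brightest, miR-451, miR-3584, miR-16, miR-223, miR-23a, miR-22, miR-27a, miR-21, miR-20a, miR-130a, miR-29a, miR-15b and miR-133b had such a lone arm. Their other arms had summed signals of −34.8 to 4.05 before the detection call.

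The hairpins of miR-451, read from RefSeq, and of miR-122, miR-140 and miR-142 show where the detected arms lie, and capitals mark the detected members.
miR-451: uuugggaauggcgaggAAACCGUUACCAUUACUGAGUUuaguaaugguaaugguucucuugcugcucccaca
miR-122: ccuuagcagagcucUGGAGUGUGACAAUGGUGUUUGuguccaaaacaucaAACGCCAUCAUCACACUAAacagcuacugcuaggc
miR-140: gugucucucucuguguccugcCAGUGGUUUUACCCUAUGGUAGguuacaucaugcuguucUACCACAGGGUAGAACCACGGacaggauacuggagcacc
miR-142: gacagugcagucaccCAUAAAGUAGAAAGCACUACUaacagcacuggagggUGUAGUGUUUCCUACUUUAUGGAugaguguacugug
miR-451 is known to be matured by Argonaute 2 without Dicer, so its precursor gives 1 miRNA, and miR-451-3p was not detected here. The other 3 hairpins gave both arms.

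Where both arms were detected, the 3p arm was brighter in 6 precursors and the 5p arm in 3, or in 7 and 2 with 4 other summaries of the spots, which turn miR-191a. miR-122 had the widest gap. miR-122-5p exceeded miR-122-3p 55.1-fold (log2 5.78 ± 0.28), and miR-122-3p held 1.78% of the pair. let-7d-5p, at 218, exceeded let-7d-3p, at 21.7 ± 2.22, 10.01-fold (log2 3.32 ± 0.18). The total signal weights each probe by its number of spots. That was 10 for each of the 2 probes of let-7d-5p and 5 for each of the 4 probes of let-7d-3p. With these 4 summaries (processed signals summed over probes, with outlier spots kept, of the brightest probe, or after normexp background correction) the log2 difference was 4.32 to 5.45 for miR-122 and 1.45 to 2.31 for let-7d.

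In the other direction miR-328a-3p gave 400 ± 30.1 and miR-328a-5p 67.7 ± 5.96, a log2 difference (5p minus 3p) of −2.56 ± 0.17. miR-652-3p gave 81.1 ± 7.77 and miR-652-5p 16.1 ± 2.64 (log2 −2.33 ± 0.27, or −2.14 to −1.27 with the other summaries). miR-140-3p, from a precursor known for its role in cartilage, gave 563 ± 46.0 and miR-140-5p 172 ± 12.6 (log2 −1.71 ± 0.16).

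miR-142-3p and miR-142-5p stood at log2 −1.22 ± 0.15. miR-126a-3p gave 48.8 and miR-126a-5p 18.3 ± 4.57, but the latter was read by 1 probe with 5 of 20 spots well above background, so no difference is given. miR-324-3p gave 48.3 ± 4.65 and miR-324-5p 26.5 ± 3.52 (log2 −0.87 ± 0.24). miR-191a-5p and miR-191a-3p gave 10.7 ± 1.67 and 8.01 ± 1.32. Their log2 difference of 0.42 ± 0.33 turned to between −0.27 and −3.32 with all 4 other summaries, so the brighter arm of miR-191a is not settled.

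The arms are read by different probes, so the gaps in total signal were set beside the spread between probes of 1 miRNA. That spread was computed from processed probe means, over members whose 2 probes both had at least 0.5 of their spots well above background. miR-122 and miR-328a differed by more than its 90th percentile of 4.53 in total signal and with all 4 other summaries. let-7d did so except with normexp. miR-652 did so in total signal but with none of the 4 other summaries. Some members left out of that spread had wider gaps between probes (miR-484, 49.5-fold) and others narrower ones (miR-672-5p, 1.07-fold). miR-122-3p was itself left out, with 1 of its 2 probes above background. The arm gaps in total signal compare sums over probes, whereas the spread compares single probes. Whether the arms differ beyond the effect of their probes was not tested.

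**Figure D4:**
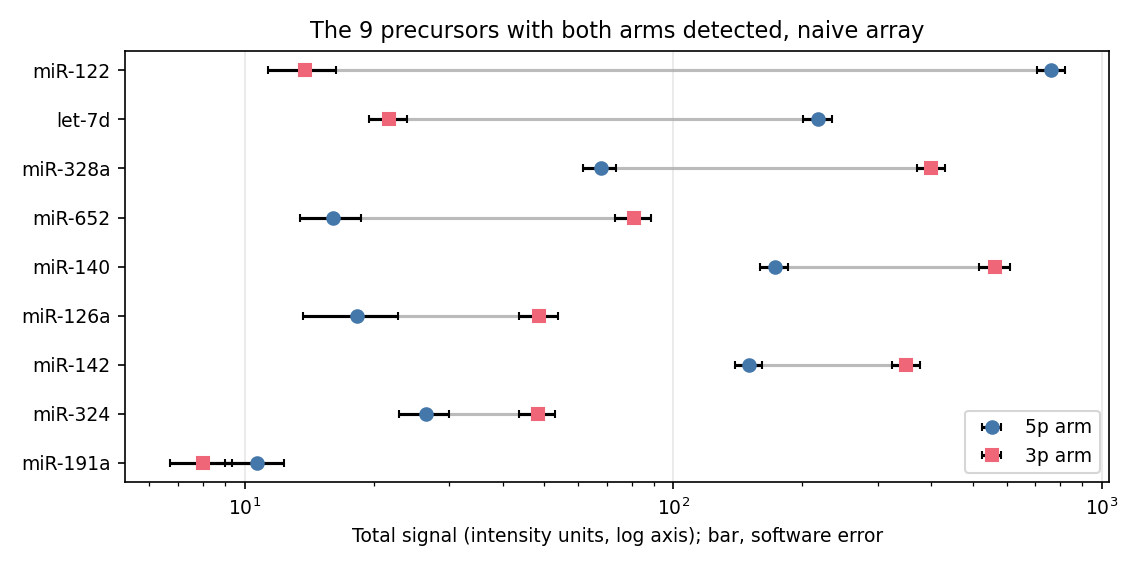
Total signal of the 5p arm (circles) and the 3p arm (squares) of the 9 precursors with both arms detected, in intensity units on a log axis, with bars for the scanner software's error. miR-122 has the widest gap (762 and 13.8), and the error bars of the miR-191a arms overlap.

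Some members differ from each other by 1 or 2 bases yet gave far apart signals. Of the members with a sequence, 32 formed 21 such pairs, with lengths that differ by at most 1 base. The 5 pairs with the widest gaps are shown with the differing bases, and an extra last base, in capitals.
miR-16-5p: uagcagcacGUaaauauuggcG
miR-195-5p: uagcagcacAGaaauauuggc
miR-133b-3p: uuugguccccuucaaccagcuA
miR-133a-3p: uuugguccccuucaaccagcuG
miR-23a-3p: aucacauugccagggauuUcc
miR-23b-3p: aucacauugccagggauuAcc
miR-130a-3p: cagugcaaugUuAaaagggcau
miR-130b-3p: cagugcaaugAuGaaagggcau
miR-27a-3p: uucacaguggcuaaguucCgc
miR-27b-3p: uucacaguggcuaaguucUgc

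The brighter member is named first in each pair, and positions count from 1 at the 5′ end. miR-16-5p (4792) and miR-195-5p (12.6) differ by G10A and U11G. miR-133b-3p (756) and miR-133a-3p (10.2), which share all but the last base, differ by A22G. miR-23a-3p (2511) and miR-23b-3p (203 ± 16.6) differ by U19A, and miR-27a-3p (1562) and miR-27b-3p (181 ± 14.2) by C19U. miR-130a-3p (1169) and miR-130b-3p (119.98) differ by U11A and A13G. In all 5 pairs the seeds are the same, and the dimmer miRNA lay below the brighter by far more than the error of either. miR-133a-3p and miR-195-5p lay near the detection limit. The former had 3 of its 20 spots well above background, and the latter had 1 of its 2 probes above background.

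Other pairs were close. let-7a-5p and let-7f-5p, which differ by G12A, gave 306 and 303, and let-7b-5p and let-7c-5p, which differ by G17A, gave 197 and 188. miR-20b-5p (686) and miR-17-5p (649) differ by C10U and U12C. In these 3 pairs the gap was within the error of either signal, and whether the probes read 1 RNA or both was not tested. miR-107-3p (253 ± 20.5) and miR-103-3p (113 ± 9.31) differ by C22G and lay outside their errors. Their gap of 2.23-fold was no wider than the median of 2.23 between the probes of 1 miRNA, taken where both probes were above background.

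**Figure D5:**
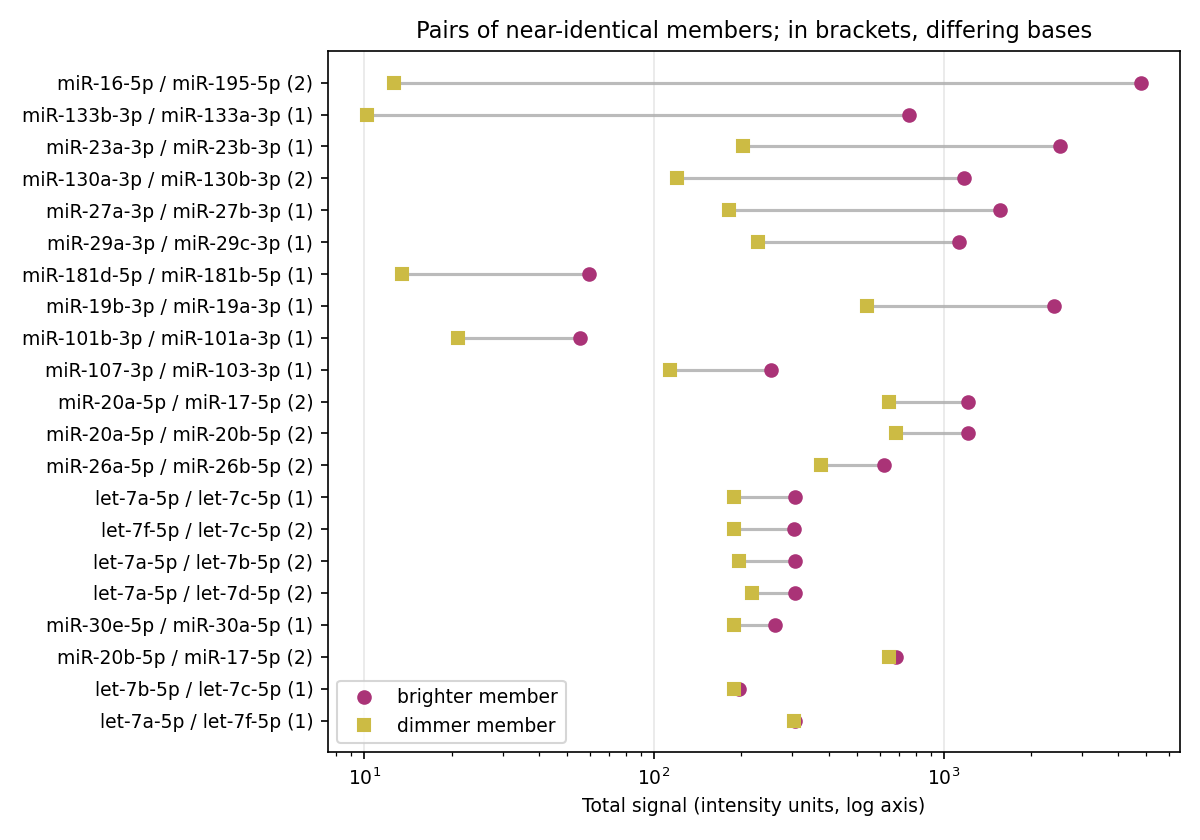
Total signal of the brighter (circle) and dimmer (square) miRNA of the 21 pairs of members that differ by 1 or 2 bases, in intensity units on a log axis; the brackets give the number of differing bases. The pair of miR-16-5p and miR-195-5p lies farthest apart (4792 and 12.6), and let-7a-5p and let-7f-5p nearly coincide (306 and 303).

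The 4 brightest members include 3 that are rich in G and hold the tetramer GGAG, which is known as a motif bound by hnRNPA2B1, a protein reported to sort miRNAs into exosomes. They are shown with GGAG in capitals.
miR-3584-5p: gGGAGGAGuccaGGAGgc
miR-1224: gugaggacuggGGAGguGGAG
miR-3473: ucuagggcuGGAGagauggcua
These 3 held 31.1% of the signal, with G at 55.6%, 61.9% and 40.9% of their bases, against a median of 26.1% over the 128 members with a sequence and 22.7% over 513 undetected miRNAs. GGAG was found, on the miRNA strand, in 14 of the 128 members (10.9%), in 36 of the 513 undetected miRNAs (7.02%) and in 7.80% of all 641 sequences. The other 11 members with GGAG held 1.43% of the signal, and miR-122-5p was the brightest of these. The median signal of the 14 was 44.5, against 96.4 for members without the tetramer. Across the 128 members the share of G and log2 signal had a Pearson r of 0.086 and a Spearman rho of 0.031. The seed of miR-3584-5p holds 2 of its 3 occurrences, which share a base.

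The tetramer CCCU, searched on the same strand, was found in 16 members (12.5%) and in 46 undetected miRNAs (8.97%), and its members held 1.51% of the signal. A first base of U, the base that Argonaute proteins favour, was found in 64 members (50%) and 167 undetected miRNAs (32.6%), and in 14 of the 20 brightest. miR-451-5p begins with A, and miR-3584-5p and miR-1224 begin with G. The share of G and C in a sequence and its log2 signal had a Pearson r of −0.11 and a Spearman rho of −0.17 across the 128 members, which share 1 array. The median length was 22 bases in members and in undetected miRNAs, and miR-3584-5p has 18.

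At the dim end the call rests on little signal. Of the 140 members, 121 had at least 0.5 of their spots well above background, and 6 had none. The dimmest members were miR-30c-2-3p, miR-7a-1-3p, miR-505-3p, miR-300-5p and miR-339-3p, with 7.07, 5.62, 5.46, 4.90 and 4.29 intensity units. Their processed signals summed over probes were 5.04, 4.51, 4.66, 9.11 and −3.11. Outside the call, the highest such sums were those of miR-338-3p, miR-1306-3p, miR-3559-5p, miR-98-5p and miR-203a-3p, at 15.8, 14.9, 13.0, 11.5 and 10.9. All 140 members had at least 1 probe whose total was above 3 times its error, and none of the 579 undetected miRNAs had one. The total gene signal is itself the sum over such probes. This therefore describes the call and is no support for the dim members.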

How the data were processed

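The naive sample's exosome RNA was read on an Agilent miRNA array in a single channel (Cy3). Per the file headers, the deposited intensity values were made with Agilent Feature Extraction 10.7.3.1, protocol miRNA_107_Sep09, on a grid annotated on rn4, whereas the submitters' processing notes name version 9.1. The labels' protocol describes labelled cRNA from linear amplification, a procedure for messenger RNA, and this was not resolved.

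The total gene signal of the deposited table equals 0.0678 times mean spot signal times spots, summed over the probes above 3 errors, in 140 of 140 members within 0.1%. Undetected miRNAs are set to 0.1. The deposited intensity is background-subtracted and not scaled. Of 14380 spots 386 were marked as outliers and 0 were saturated. The array count limits the precision. Spots were summarised with pandas 2.3.3, and normexp was run with limma 3.58.1 without offset on the median spot signal, which took the place of the planned mean spot signal after the columns were seen.

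The 16 lists, the tetramers and the rule for named miRNAs were chosen with earlier results of these data known. The rule takes the 20 brightest members, 5 members and 5 undetected miRNAs at the detection limit, arm pairs, the 5 largest seed groups and list members. List names were matched exactly or without the arm, and miR-486, miR-155-5p, miR-148a-3p and miR-219a-5p had no match. Near-identical pairs and neighbouring genes were added after the values were seen. The averaging and summing of probes was tested on spots simulated from this array's own probe means with added noise, for bright miRNAs only. That test covers neither the total gene signal nor the dim members.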

Additional observations from a re-analysis of the deposited data

How the results depend on the processing

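The same 5 miRNAs were the brightest under all 6 alternatives (summed probe means, the brightest probe alone, outlier spots kept, normexp, detection by spots well above background, and the authors' value table). For the 20 brightest, summed probe means are the total times a constant, and the authors' table holds the same totals. Detection by spots well above background drops dim members only. The agreement of these alternatives on the brightest was thus fixed in advance. Only the brightest probe alone, outlier spots kept and normexp could change their order. With the brightest probe alone, 9 of the 10 brightest and 19 of the 20 brightest stayed, and with the other alternatives all did. The share of the brightest lay between 19.4% and 20.3%, that of the 5 brightest between 54.3% and 56.6%, and that of the blood-cell lists between 39.9% and 41.2%. Among the main shares, 2 values moved by more than the software's error, the 10 brightest with normexp, at 68.9%, and the 5 largest seed groups with the brightest probe alone, at 20.3%. The counts of members and of precursors carry no such error and were not judged by it. Among single miRNAs, lists, seeds and arms, 50 values moved and 210 did not. The platelet list fell to 8.34%, the myeloid list to 4.75% and the muscle and heart list rose to 1.07% with the brightest probe alone. The smooth muscle and fibroblast list ranged from 0.271% to 0.448% and the endothelial list from 0.0520% to 0.0929%. Detection by spots well above background left 121 members, 6 precursors with both arms (miR-126a, let-7d and miR-191a dropped out) and 84 with 1. The arms of miR-191a turned, to log2 −3.32 with summed probe means, −0.27 with the brightest probe, −2.88 with outlier spots kept and −0.44 with normexp. The probe means were 19.6, 11.9, −13.9 and −14.5 for miR-191a-5p and 23.6, 7.13, 3.85 and −4.00 for miR-191a-3p. The total sums only probes above 3 errors, so negative probe means enter the summed means but not the total. Why the probes of an arm differ was not tested. No paired analysis was possible because the group has 1 array. Leaving out replicates could not be run for the same reason.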

Other observations

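Genes of 16 neighbouring groups (hairpins within 10 kb on the same strand, in RefSeq's build) gave members from 2 or more genes, and signals within a group could lie far apart. miR-451-5p (18841) and miR-144-3p (115) come from neighbouring genes, Mir451a and Mir144. In the group of Mir23a, Mir27a and Mir24-2 the 3 members were close, at 2511, 1562 and 2004. In the group of Mir17 to Mir92a1 all 6 genes gave a member, from miR-92a-3p at 2873 down to miR-18a-5p at 255 ± 18.7. Of the 31 genes around Mir494 in the Dlk1-Dio3 region, 2 gave a member. These were miR-494-3p at 83.3 ± 8.59, with 1 of its 2 probes above background, and miR-300-5p at 4.90 ± 1.15. Of the 20 spots of miR-300-5p, 2 were well above background. On the list for that region 2 of 27 miRNAs (7.41%) were detected, against 19.5% over the whole array. They were miR-494-3p and miR-370-3p (99.6 ± 7.65). The miR-17-92 and paralogous list had 11 of 12 detected (91.7%), with 10.7% ± 0.348 of the signal. Both lists were chosen with earlier results of these data known, so their counts are no result about these clusters. miR-92a-3p, miR-19b-3p, miR-17-5p and miR-24-3p can each come from 2 genes, which the array cannot tell apart.

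The ratio of miR-451-5p to miR-23a-3p, which in quantitative PCR serves as an index of haemolysis, was 7.50 in signal (log2 2.91). The array ratio has no scale in common with that index, and its part in the level of the red-cell list was not tested.

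The authors' deposited value table lists 102 miRNAs, 101 of them members with the same values within 0.0224%. These held 99.3% of the summed signal, and the brightest member outside that table, miR-181c-5p, gave 46.2 ± 4.67. The remaining entry was miR-92b-3p at 0.1, the value of an undetected miRNA. The table's median for this array was 189, and its values are linear, unscaled and uncentred.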
